A study of Homo sapiens with 6 samples.

Results

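The SLC25 genes encode the mitochondrial carriers, small proteins of the inner mitochondrial membrane that exchange metabolites, nucleotides and cofactors between the matrix and the cytosol. The carriers supply the matrix with ADP and phosphate for ATP synthesis and return ATP to the cytosol. They also move amino acids, carboxylates, iron, glutathione and coenzymes, so the set of carriers a cell makes bears on which reactions its mitochondria can run. Members were taken by name, as every row of the deposited gene table whose symbol is SLC25A followed by a number. The rule found 48 rows of 48114, each with a single symbol, and used no measured value. Antisense genes, pseudogenes and carriers named otherwise, such as UCP2, were not members.

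The cells were TC-71, a human Ewing sarcoma line described in the labels as wild type, and both groups were grown in the same serum-containing medium. They were exposed for 16 h to BEZ235, a compound that inhibits both PI3K, a lipid kinase, and mTOR, a kinase that controls growth, or to the solvent dimethyl sulfoxide (DMSO) alone. Each group had 3 libraries from cultures that the labels call biological replicates. No dose of BEZ235 is stated in the labels, and 1 time point of 1 cell line was measured. The comparison asks which carrier transcripts differ between BEZ235 and DMSO, taken by the substrate that each carrier moves.

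Recovered reads amounted to 184790722 to 233767211 per library. All 6 Ewing sarcoma markers examined were expressed, among them CD99, a surface protein used in diagnosis, at 205289 to 267375 normalized counts. Their sum was 410173 to 450999 in DMSO and 322706 to 335489 in BEZ235, with members in both directions. NR0B1 was at 50531 to 60166 in DMSO and at most 25550 in BEZ235, and NKX2-2 at 3009 to 3236 and 7487 to 7707. CD3E of T cells and KRT5 of basal epithelium were at 0 in every library. Summed over their lists, 4 blood markers came to 11.9 to 32.0 normalized counts in DMSO and 24.5 to 51.0 in BEZ235, and 3 endothelial markers to 0.83 to 18.4 and 8.11 to 13.8. The 4 epithelial markers came to 96.0 to 177 and 114 to 186. The 4 fibroblast markers summed, nearly all of it COL1A1 and LUM, came to 8710 to 9987 normalized counts in DMSO and 5085 to 5528 in BEZ235. The share of normalized counts from genes of mitochondrial DNA was 2.82 to 3.55% in DMSO and 0.507 to 0.706% in BEZ235. The part of these shifts in the results on carriers was not tested.

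Of the 48 members, 44 reached a normalized count of 10 in at least 3 libraries and were tested with limma across all 23923 genes that did so. After BEZ235, 17 members were higher and 18 lower at an adjusted p under 0.05. That made 79.5% of tested members called, where 66.3% of all genes tested were called, 33.1% higher and 33.2% lower. Counts of members by substrate group below are to be read beside these shares of all genes. For 38 tested members, or 86.4%, the DMSO and BEZ235 values did not overlap, beside 70.9% of all genes. A called change of at least 2-fold was measured in 10 of the 44 tested members, 5 up and 5 down. Of all genes tested 26.3% had such a change, 12.7% up and 13.6% down. The median log2 fold change was -0.02 over the tested members and 0.00 over all genes tested, and the median size of the change was 0.65 and 0.60. The family thus did not move in 1 direction. Normalized counts are relative to the other transcripts of a library, so fewer cells of a kind and less RNA per cell cannot be told apart. A change in RNA per cell shared by all genes cannot be seen either.

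**Figure D1:**
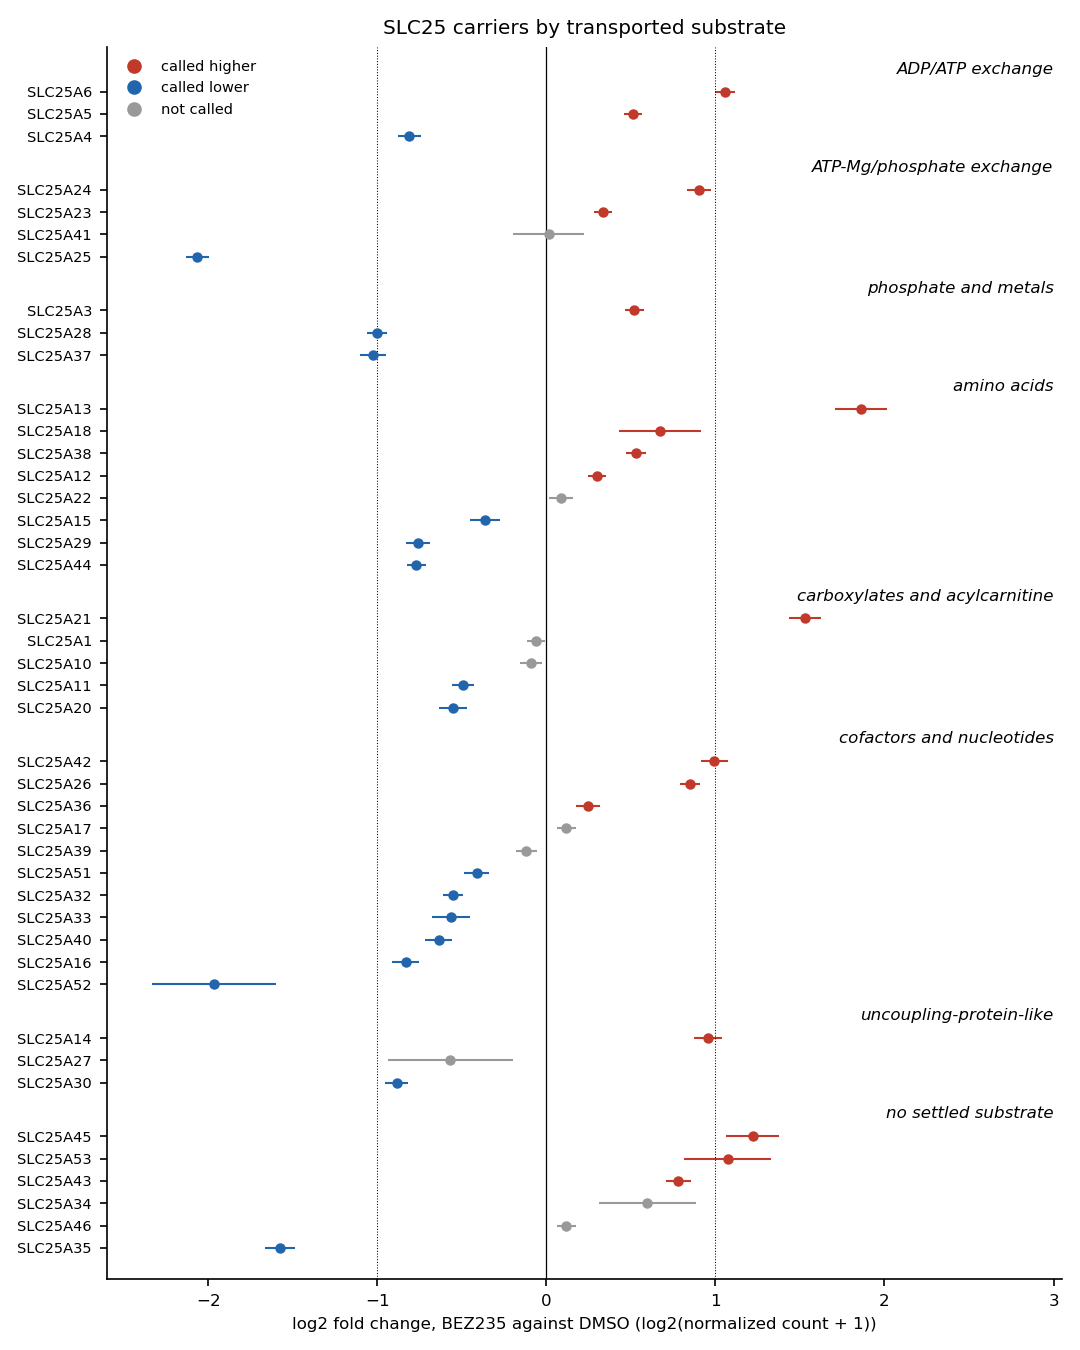
Log2 fold change of the tested carriers reported by name, BEZ235 against DMSO, with its standard error, grouped by substrate and ordered by size within a group. Points right of 0 were higher in BEZ235, dotted lines mark 2-fold, and every substrate group has members on both sides of 0.

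**Figure D2:**
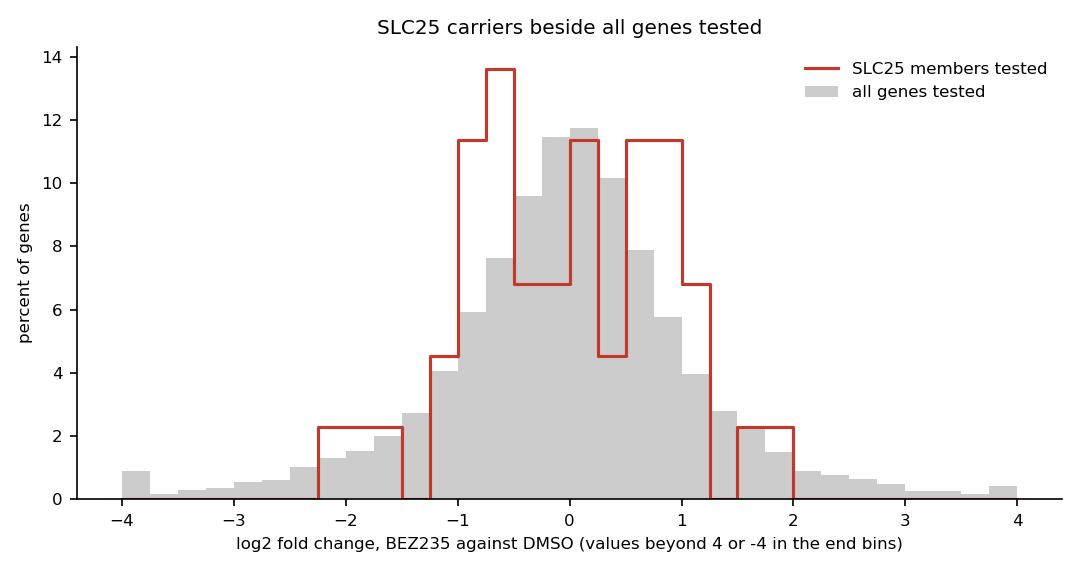
Percent of genes (vertical axis) in bins of log2 fold change (horizontal axis), for the 44 tested carriers (line) and all 23923 genes tested (bars). The carriers spread to both sides of 0 like the other genes, from -2.06 to 1.86.

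The summed normalized counts of the family rose from 446705 ± 8116 (SD, n = 3) to 588722 ± 18586. This sum was carried by SLC25A3, SLC25A5 and SLC25A6, which together held 55.8% ± 0.852 of it in DMSO and 70.6% ± 0.236 in BEZ235. The other 45 members together went the opposite way, from 197262 ± 2055 to 173265 ± 4184. Sums of counts weigh long and abundant transcripts most, and no test was made on them. The rows of 24 members overlap another row with a mean of at least 10, 15 of them a named gene, and reads there could belong to either.

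Among the ADP/ATP carriers, which bring ADP into the matrix in exchange for ATP, SLC25A6 and SLC25A5 rose and SLC25A4 fell. SLC25A6 (ANT3, row GSHG0047224, hg38 chromosome X, 1386152 to 1392113) was read at 89946, 85479 and 92604 normalized counts in DMSO replicates 1 to 3 and at 186698, 193964 and 177730 in BEZ235. All BEZ235 libraries lay far above all DMSO libraries, and the log2 fold change was 1.06 (SE 0.060; adjusted p = 6.32e-08 by limma). SLC25A5 (ANT2, the form of dividing cells) had 62829, 59452 and 63225 in DMSO and 87317, 90488 and 87035 in BEZ235. Its groups did not overlap either, and its log2 fold change of 0.51 (SE 0.052) was smaller. SLC25A4 (ANT1, the form of heart and skeletal muscle) had 9946, 11971 and 11266 in DMSO against 6131, 6590 and 6170 in BEZ235, a log2 fold change of -0.81 (SE 0.070). The 3 forms exchange the same substrates, and their transcripts moved apart. SLC25A31, the form of germ cells, had 0 reads in the DMSO libraries and 23 in the BEZ235 libraries and did not pass the filter. With no filter it was called higher (limma adjusted p = 0.00477), at 3.47, 10.9 and 8.15 normalized counts in BEZ235, of which the first is 3 reads, the most that a count of 0 allows.

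The make-up of the ADP/ATP carrier reads shifted towards SLC25A6. It held 54.5 to 55.4% of the reads of the 4 genes in DMSO libraries and 65.6 to 66.6% in BEZ235 libraries, while SLC25A4 went from 6.11 to 7.63% down to 2.19 to 2.28%. These shares are of normalized counts, not set per length, so their change can be read but not the order of the genes. SLC25A3, SLC25A5 and SLC25A6 have processed pseudogenes that could share their reads. SLC25A5 also overlaps its antisense gene SLC25A5-AS1, which had a mean of 117 normalized counts.

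The first 20 bases of the RefSeq transcripts (GRCh38.p14) are shown for these carriers and the phosphate carrier because mRNAs whose translation depends on mTOR are known to start with a C followed by a run of pyrimidines. Capitals mark the unbroken run of C and T from the first base.
SLC25A6 (chrX:1392094-1392113, minus strand): CCTTTCggtccaggcggcgg
SLC25A5 (chrX:119468444-119468463, plus strand): CCCCgcagcgccggagtcaa
SLC25A3 (chr12:98593686-98593705, plus strand): CTCTgtgagccgcaaccttt
SLC25A4 (chr4:185143266-185143285, plus strand): ggccccctagcgtcgcgcag
With a start defined as a C followed by at least 4 pyrimidines, SLC25A6, SLC25A21 and SLC25A22 qualified among the 40 members in the RefSeq promoter table. The same start was found in 6.61% of the 13934 tested genes in that table, in 4.07% of all its promoters, and in 42 of 58 tested genes for cytosolic ribosomal proteins. SLC25A6 and SLC25A21 were called higher and SLC25A22 was not called. The table held 17 members called higher and 12 called lower. RefSeq gives a start per transcript, and the starts used in TC-71 were not measured here. Translation was not measured either, and a link of the start to the transcript changes was not tested.

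**Figure D3:**
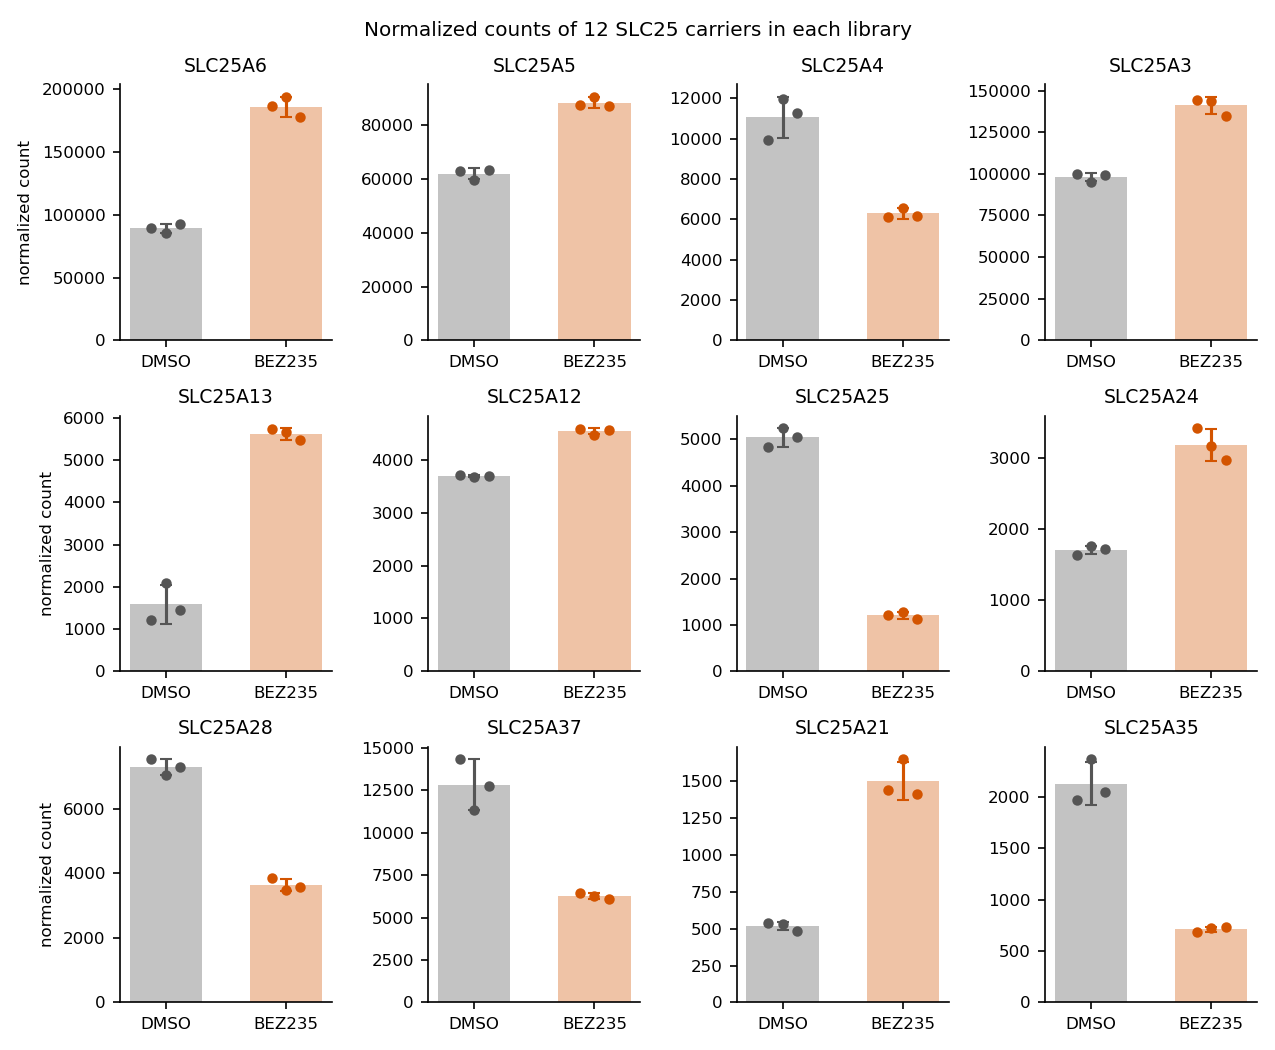
Normalized counts of 12 carriers in DMSO and BEZ235; bars are means of 3 libraries, error bars the SD, points the libraries, and each panel starts at 0. In all 12 panels the points of the groups do not overlap, as for SLC25A6, with 85479 to 92604 in DMSO and 177730 to 193964 in BEZ235. All 12 are called members, and no called member had overlapping groups. Of all tested members 86.4% did not overlap, beside 70.9% of all genes tested.

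The phosphate carrier rose and the iron carriers fell. SLC25A3, which imports phosphate for ATP synthesis and also carries copper, was at 100171, 95387 and 99233 normalized counts in DMSO and 144475, 143682 and 134983 in BEZ235. Every BEZ235 value exceeded every DMSO value (log2 fold change 0.52, SE 0.056). Its row also holds the small nucleolar RNA SNORA53, at a mean of 54.5. The mitoferrins deliver iron to the matrix for heme and iron-sulfur clusters. SLC25A37 (mitoferrin-1) had 14352, 11359 and 12755 in DMSO and 6451, 6275 and 6071 in BEZ235, a log2 fold change of -1.03 (SE 0.077). SLC25A28 (mitoferrin-2) had 7544, 7033 and 7289 against 3858, 3493 and 3573, so that BEZ235 stood at 0.499 of DMSO on the log2(value + 1) scale (adjusted p = 8.9e-08 by limma). The groups of neither gene overlapped, both fell about 2-fold, and the ratio of SLC25A28 to SLC25A37 was 0.572 ± 0.047 (SD, n = 3) in DMSO and 0.581 ± 0.022 in BEZ235.

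The ATP-Mg/phosphate carriers set the adenine nucleotide content of the matrix and, except SLC25A41, carry a calcium-binding domain. SLC25A25 (GSHG0043829, hg38 chromosome 9, 128068200 to 128109246) had the largest fall among the tested members. It was at 4842, 5247 and 5039 normalized counts in DMSO and 1209, 1286 and 1124 in BEZ235, with a log2 fold change of -2.06 (SE 0.070; adjusted p = 1.67e-09 by limma). Its highest BEZ235 library was far below its lowest DMSO library. SLC25A24 rose instead, from 1708 ± 57.6 (SD, n = 3) to 3196 ± 226, and SLC25A23 rose by less, from 11705 ± 304 to 14773 ± 665 (log2 fold changes 0.90 and 0.34). SLC25A41 stood at 143 ± 29.6 and 144 ± 24.0 and was not called. SLC25A25 overlaps its antisense gene SLC25A25-AS1, which was not called (mean 306, log2 fold change 0.24, limma adjusted p = 0.192). An unnamed row wholly within SLC25A25 had a mean of 1118 and fell by 1.88 on the log2 scale (limma adjusted p = 8.33e-09).

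Carriers of amino acids moved both ways, 4 higher, 3 lower and 1 not called of 8 tested. The aspartate/glutamate carriers, which export aspartate as a step of the malate-aspartate shuttle, both rose, but by unequal amounts. SLC25A13 (citrin, GSHG0040851, hg38 chromosome 7, 96120220 to 96322098) had 1207, 2094 and 1459 in DMSO and 5742, 5663 and 5467 in BEZ235. This was the largest rise among the tested members, with a log2 fold change of 1.86 (SE 0.154; adjusted p = 1.2e-06 by limma). DMSO replicate 2 was the highest of its group and still below every BEZ235 library. SLC25A12 (aralar) had 3716, 3672 and 3686 against 4585, 4468 and 4566, without overlap (log2 fold change 0.30, SE 0.052). The ratio of SLC25A12 to SLC25A13 went from 2.45 ± 0.666 (SD, n = 3) to 0.808 ± 0.024, with no overlap between groups.

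SLC25A38, the glycine carrier needed for heme synthesis, rose as well. It had 3563, 3554 and 3683 in DMSO and 5199, 5471 and 4936 in BEZ235, again without overlap (log2 fold change 0.53, SE 0.058). In contrast SLC25A44, which brings branched-chain amino acids into mitochondria, went from 5892 ± 221 (SD, n = 3) to 3457 ± 101. SLC25A29, the carrier of basic amino acids, fell from 19677 ± 1870 to 11595 ± 569. The ornithine carrier SLC25A15, which serves the urea cycle and polyamine metabolism, fell by 0.36 on the log2 scale (SE 0.089). Its row overlaps that of SUGT1P3 and TPTE2P5, which had a log2 fold change of -0.25.

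Among glutamate carriers, SLC25A22 was not called and SLC25A18 rose on few reads. SLC25A22 had 3998 ± 226 and 4252 ± 320, with overlapping groups, a log2 fold change of 0.09 (SE 0.070) and an adjusted p of 0.29 by limma. SLC25A18 was low, with 180 reads over the DMSO and 275 over the BEZ235 libraries, and rose by 0.67 on the log2 scale (SE 0.242; adjusted p = 0.0298 by limma). That call was lost with limma without DMSO replicate 1 (adjusted p = 0.0604) or 2 (0.0663), without BEZ235 replicate 1 (0.0977) or 3 (0.0651), with no filter (0.0674) and with total-count scaling (0.0598). Over all alternatives its adjusted p ran from 0.00649 to 0.0977. SLC25A2, a second ornithine carrier, had 0 and 14 reads and was not tested.

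Of the carboxylate and acylcarnitine carriers, 1 rose and 2 fell of 5. SLC25A21, which carries oxoadipate and oxoglutarate, had 539, 533 and 485 normalized counts in DMSO and 1444, 1654 and 1412 in BEZ235. The BEZ235 libraries were all more than 2 times the highest DMSO library (log2 fold change 1.53, SE 0.094). Its row overlaps PAX9, which had a log2 fold change of -0.33, and the antisense gene SLC25A21-AS1, which had one of 0.49. SLC25A1, the citrate carrier that feeds cytosolic fatty acid and sterol synthesis, had 20146, 19063 and 20988 against 19327, 19655 and 18665. These groups overlapped, and the log2 fold change, -0.06 (SE 0.053; adjusted p = 0.324 by limma), was not called. It was -0.16 and called with total-count scaling (adjusted p = 0.0252, and 0.0252 to 0.888 over all alternatives).

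SLC25A10, the dicarboxylate carrier, was likewise not called at 1928 ± 15.7 and 1812 ± 65.1 (SD, n = 3; log2 fold change -0.09), though its groups did not overlap. The oxoglutarate/malate carrier SLC25A11, the other carrier of the malate-aspartate shuttle, fell from 8113 ± 621 to 5756 ± 232 (log2 fold change -0.49, SE 0.065). It overlaps RNF167, which fell by a like amount, 0.45 on the log2 scale. SLC25A20, which brings acylcarnitines in for fatty acid oxidation, fell from 1577 ± 129 to 1074 ± 14.2 (log2 fold change -0.55, SE 0.080).

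Of 12 tested carriers of cofactors and nucleotides, 7 were lower (58.3%) and 3 higher (25%), beside 33.2% and 33.1% of all genes tested. The 7 include both SLC25A51 and its near copy SLC25A52. SLC25A32, for folate and flavin adenine dinucleotide, fell from 6409 ± 332 (SD, n = 3) to 4367 ± 171. SLC25A40, a glutathione carrier, fell from 1832 ± 154 to 1176 ± 52.6, and SLC25A51, the carrier of nicotinamide adenine dinucleotide, from 2985 ± 130 to 2248 ± 197. SLC25A32 and SLC25A40 overlap the rows of DCAF13 and DBF4, which were lower as well.

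SLC25A52, a near copy of SLC25A51, had 82.1, 74.4 and 90.1 normalized counts in DMSO and 13.9, 18.8 and 31.7 in BEZ235. All of its BEZ235 values lay below its DMSO values (log2 fold change -1.96, SE 0.366), on 256 and 66 reads. Because the copies are so alike, reads could be split between SLC25A51 and SLC25A52. SLC25A51 also overlaps several unnamed rows, with means of up to 797 normalized counts, and reads there could belong to either. The row with that mean had a log2 fold change of -0.35. The unnamed row that spans all of SLC25A51 was not called (log2 fold change -0.15, limma adjusted p = 0.676).

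SLC25A26 rose from 2373 ± 108 to 4277 ± 158 (SD, n = 3; log2 fold change 0.85, SE 0.062). It imports S-adenosylmethionine, the methyl donor for mitochondrial RNA and proteins. The gene overlaps LRIG1, which fell by 1.28 on the log2 scale. SLC25A42, a coenzyme A carrier, rose from 1926 ± 123 to 3844 ± 363, while SLC25A16, also linked to coenzyme A, fell from 1391 ± 41.1 to 782 ± 36.6. The ratio of SLC25A16 to SLC25A42 went from 0.725 ± 0.069 to 0.205 ± 0.029.

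The pyrimidine nucleotide carriers also parted. SLC25A33 fell from 1956 ± 361 to 1308 ± 45.8 (SD, n = 3; log2 fold change -0.57, SE 0.112). SLC25A36 rose by 0.25 (SE 0.072; adjusted p = 0.0107 by limma), from 2974 ± 275 to 3523 ± 83.8. With total-count scaling this was 0.15 and no longer called (adjusted p = 0.0671, 0.000982 to 0.0671 over all alternatives). The ratio of SLC25A33 to SLC25A36 was 0.667 ± 0.176 in DMSO and 0.371 ± 0.012 in BEZ235.

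SLC25A39, which imports glutathione, had 21852 ± 1500 and 20119 ± 846 (SD, n = 3) and was not called. Its limma adjusted p was 0.112, but 0.0232 without DMSO replicate 1 and 0.029 with total-count scaling (0.0232 to 0.302 over all alternatives). With SLC25A40 lower, the ratio of SLC25A39 to SLC25A40 went from 11.9 ± 0.611 to 17.1 ± 1.45. SLC25A17, the cofactor carrier of peroxisomes, had a log2 fold change of 0.12 (limma adjusted p = 0.0862). That value was 0.0343 without BEZ235 replicate 3 and 0.00859 with quantile normalization (0.00859 to 0.771 over all alternatives).

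**Figure D4:**
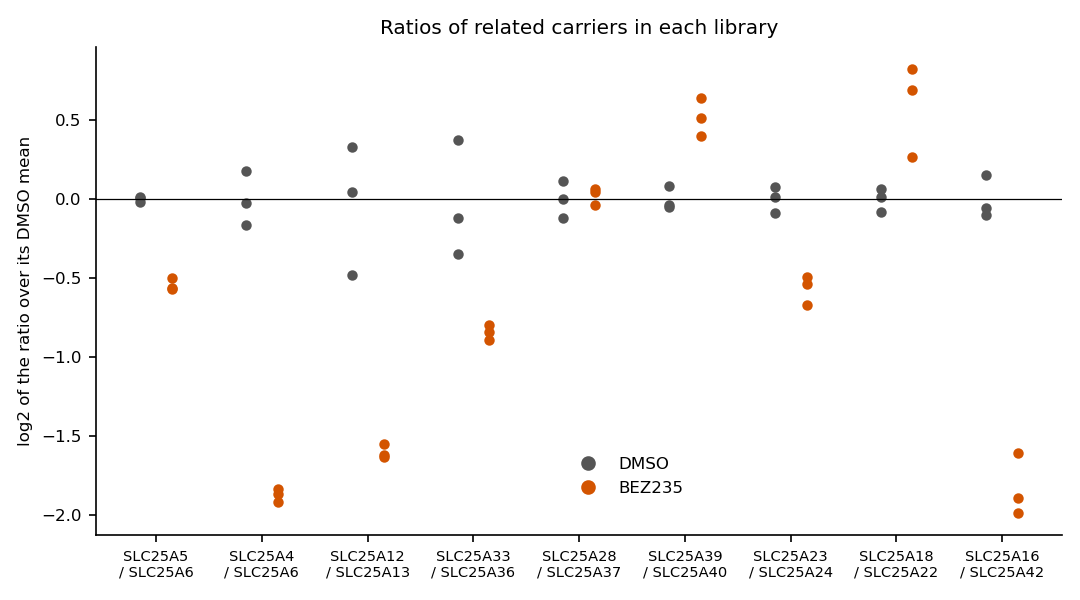
Log2 of the ratio of related carriers in each library, set against the mean ratio in DMSO, for 9 pairs; points are libraries. The BEZ235 points lie apart from the DMSO points in 8 pairs and overlap them for SLC25A28/SLC25A37 (0.572 and 0.581). Of all single genes tested, 70.9% did not overlap between groups.

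Over the 9 pairs of related carriers, the ratio of normalized counts did not overlap between groups in 8. The share over other pairs of genes was not computed, and 70.9% of all single genes tested did not overlap. The pairs were chosen with earlier results of these data known, and SLC25A6 recurs among them. The shift was 3.67-fold for SLC25A4 over SLC25A6, 3.54-fold for SLC25A16 over SLC25A42 and 3.04-fold for SLC25A12 over SLC25A13, each lower in BEZ235. It was 1.46-fold for SLC25A5 over SLC25A6 and 1.48-fold for SLC25A23 over SLC25A24, again lower in BEZ235. A ratio within a library does not depend on the scaling of that library. No test was made on the ratios, since permuting 3 libraries against 3 gives an exact p of 0.1 at best.

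The carriers like uncoupling proteins, named for the proteins that let protons return to the matrix, were split. SLC25A14 (UCP5) rose from 721 ± 41.1 to 1398 ± 58.7 (SD, n = 3; log2 fold change 0.95, SE 0.083). SLC25A30 (KMCP1) fell from 3453 ± 182 to 1869 ± 89.5 (log2 fold change -0.89, SE 0.068), and its antisense gene SLC25A30-AS1, which it overlaps, fell by 1.08. SLC25A27 (UCP4) was low at 75.0 ± 38.0 and 46.5 ± 6.35, with overlapping groups and a limma adjusted p of 0.198. Its log2 fold change of -0.57 was -0.91 without DMSO replicate 2, where it was called (adjusted p = 0.0336), and -0.19 without DMSO replicate 1 (0.0336 to 0.671 over all alternatives).

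Carriers without a settled substrate held 3 rises and 1 fall among 6 tested. SLC25A35 had 1972, 2373 and 2048 normalized counts in DMSO and 687, 723 and 730 in BEZ235, with a log2 fold change of -1.57 (SE 0.087; adjusted p = 5.54e-08 by limma). The groups were far apart. RANGRF lies within this row and fell by 0.63. SLC25A45 had 139, 183 and 192 against 385, 419 and 388, and rose by 1.22 (SE 0.156), each BEZ235 library above each DMSO library. It shares 1 base with FRMD8, which rose by 0.98.

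SLC25A53 had 58.3, 40.3 and 43.4 in DMSO and 103, 89.8 and 106 in BEZ235 and rose by 1.07 (SE 0.258; adjusted p = 0.00356 by limma). Its groups did not overlap, but it rests on 145 and 297 reads, and its row holds LOC286437, which rose by 0.87, and ZCCHC18. SLC25A43 rose from 1943 ± 89.5 to 3343 ± 248 (SD, n = 3). SLC25A46, which sits in the outer membrane and takes part in mitochondrial dynamics, was at 11781 ± 627 and 12789 ± 458 and not called (limma adjusted p = 0.0831). That was 0.031 without DMSO replicate 2 and 0.0201 with quantile normalization (0.0201 to 0.79 over all alternatives).

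SLC25A34 was at 60.6 ± 10.3 and 93.9 ± 26.0 and not called (limma adjusted p = 0.0891, or 0.0267 without BEZ235 replicate 2, and 0.0267 to 0.258 over all alternatives). Its deposited row runs from 15736258 to 16474962 on chromosome 1 and overlaps 24 other expressed rows, so its reads could come from several genes. SLC25A47, a carrier of liver, had 7 and 19 reads, and SLC25A48, reported for choline, had 23 and 3 reads, in DMSO and BEZ235. Neither was tested.

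The 250 bases before each RefSeq start were searched for short motifs on both strands in the 40 members present in the promoter table; SLC25A2, SLC25A16, SLC25A30, SLC25A32, SLC25A35, SLC25A37 and SLC25A41 are among the 8 without an entry. CACGTG, the E-box bound by factors such as MYC and TFEB, was found in 8 of the 40 members, which include untested ones. It was in 10.4% of tested genes, counting any start of a gene, and in 6.34% of all promoters. Of the 8 members, SLC25A13, SLC25A26, SLC25A36 and SLC25A38 were called higher, SLC25A33 and SLC25A51 lower, SLC25A46 was not called and SLC25A31 not tested. The promoter table held 17 members called higher and 12 called lower, so the E-box was in 4 of 17 and 2 of 12. The motif TGATGNAA, the core of the element through which the amino acid response factor ATF4 acts, was found only in SLC25A11 among the members, beside 2.55% of tested genes and 3.15% of all promoters. CCGGAAG, a motif of ETS factors, the family of FLI1, was in 11 of the 40 members, the untested SLC25A47 among them. It was in 16.0% of tested genes and 8.52% of all promoters. It was in 4 of the 17 members called higher and 3 of the 12 called lower. TGACGT, part of the cyclic AMP response element, was in 5 of the 40 members, beside 11.6% of tested genes and 7.10% of all promoters. It was in 3 of the 17 members called higher and 2 of the 12 called lower. CCAAT, the last motif searched, was in 20 of the 40 members, beside 40.0% of tested genes and 32.0% of all promoters. It was in 9 of the 17 members called higher and 6 of the 12 called lower. A match of letters does not show that a factor binds.

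The E-box sites of the 6 called members are shown, 30 bases each from RefSeq on GRCh38.p14, since carriers that rose and carriers that fell hold the same 6 letters, in capitals. The last line is the site of SLC25A25, the carrier with the largest fall, whose capitals hold TGACGT on both strands in overlap. TGACGT was also in 3 members called higher.
SLC25A13, higher (chr7:96322235-96322264, minus strand): gcgcagcggggtCACGTGtccctgtccagc
SLC25A26, higher (chr3:66220939-66220968, plus strand): tgtctcgcgttgCACGTGcagttgttgtgg
SLC25A36, higher (chr3:140941681-140941710, plus strand): gcccgtagggatCACGTGaaagaacactgc
SLC25A38, higher (chr3:39383314-39383343, plus strand): tcagaacaccctCACGTGacaagcgtccca
SLC25A33, lower (chr1:9539427-9539456, plus strand): tccggcccccgcCACGTGacggccgcgcgc
SLC25A51, lower (chr9:37904169-37904198, minus strand): cggtgtctccctCACGTGaccccaacagcg
SLC25A25, lower (chr9:128098296-128098325, plus strand): ggagggagcggTGACGTCAgccctgatctt
The E-box starts 26 to 154 bases before a RefSeq start in these 6 genes, and the SLC25A25 site starts 200 bases before one. SLC25A25 and SLC25A26 have 3 RefSeq starts each.

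Related genes outside the SLC25 names were set beside the members. Of the carrier-fold genes with other symbols, UCP2 rose by 0.43 (SE 0.087) and UCP3, low at 17.4 ± 1.20 and 54.9 ± 15.7 (SD, n = 3), by 1.57. MTCH2, an outer membrane insertase, fell by 0.26 (SE 0.072; adjusted p = 0.00812 by limma, or 0.0555 without the trend), and MTCH1 was not called. Of 22 other mitochondrial membrane transporters, 6 rose and 9 fell. The pyruvate carrier subunits both fell, MPC1 from 4377 ± 70.6 to 2157 ± 84.1 and MPC2 from 17888 ± 951 to 11658 ± 627. MCU, the pore of the calcium uniporter, fell by 0.69 (SE 0.071). ABCB6, a porphyrin transporter, fell by 1.46 (SE 0.053), and SFXN4 of the sideroflexins rose from 4137 ± 82.0 to 11702 ± 337. VDAC1, the outer membrane channel, had a log2 fold change of 0.08 (limma adjusted p = 0.21), or -0.02 with total-count scaling and 0.15 with quantile normalization, where it was called (adjusted p = 0.0049; 0.0049 to 0.743 over all alternatives).

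Carriers reach the inner membrane through the TIM22 complex and its small chaperones. Of 10 such genes, 6 rose and 1 fell, or 3 rose with total-count scaling and 3 with limma without the trend. TIMM10B rose by 0.85 (SE 0.057), TIMM9 rose by 0.40 (SE 0.048) and TIMM10 fell by 0.54 (SE 0.065).

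The enzymes that use the carried metabolites were lower in several lists. All 4 enzymes of the malate-aspartate shuttle fell, with GOT1 from 28298 ± 4352 to 3786 ± 130 (SD, n = 3), GOT2 by 0.60 (SE 0.056) and MDH1 by 0.44 (SE 0.049), in the same libraries in which SLC25A12 and SLC25A13 rose and SLC25A11 fell. Of 12 citrate and dicarboxylate enzymes, 6 fell and 2 rose. IDH1, IDH2 and ME1 had log2 fold changes of -2.02, -0.96 and -1.50, and ACLY, which splits the citrate that SLC25A1 exports, rose by 0.31 (SE 0.051). The count of 2 higher was 1 to 4 over the alternatives, and 1 without DMSO replicate 1 or 3 and without BEZ235 replicate 1 or 2. Of 16 mitochondrial amino acid enzymes, 9 fell and 3 rose, or 1 rose with total-count scaling and 5 with quantile normalization. PYCR1 of proline synthesis fell by 1.73 (SE 0.063), and ALAS1, which condenses the glycine that SLC25A38 imports, fell by 0.64 (SE 0.054). BCAT2 fell by 0.60 and BCKDHA rose by 0.43; both act on the branched-chain amino acids that SLC25A44 carries.

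Of 7 enzymes of folate, S-adenosylmethionine, thiamine and flavin metabolism, 5 fell and 0 rose, by limma. MTHFD2 fell from 78730 ± 2638 to 12271 ± 644 (SD, n = 3), ALDH1L2 by 2.07 (SE 0.049) and MTHFD1L by 0.85 (SE 0.053) on the log2 scale. The 2 others were MTHFD2L and MAT2A, with log2 fold changes of 0.14 and -0.08. In the list of 8 iron-sulfur and heme genes 5 fell and 3 rose, or 3 fell without DMSO replicate 3, without BEZ235 replicate 2, with quantile normalization and with limma without the trend. ISCU and NFS1 fell by 0.77 and 0.41, and UROD and LYRM4 rose by 0.78 and 0.35. For carnitine and fatty acid oxidation 3 of 9 fell and 4 rose, or 2 rose with total-count scaling, with ACADVL down by 0.76, CRAT down by 0.52, CPT1B down by 0.48 and HADHB up by 0.35. For coenzyme A, NAD and glutathione 7 of 13 fell and 3 rose. PANK4, COASY and GSR fell by 1.01, 0.69 and 0.71, and PANK1 rose from 568 ± 158 to 1508 ± 36.1. These lists are described beside the 33.1% of genes called higher and 33.2% called lower over all genes tested.

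**Figure D5:**
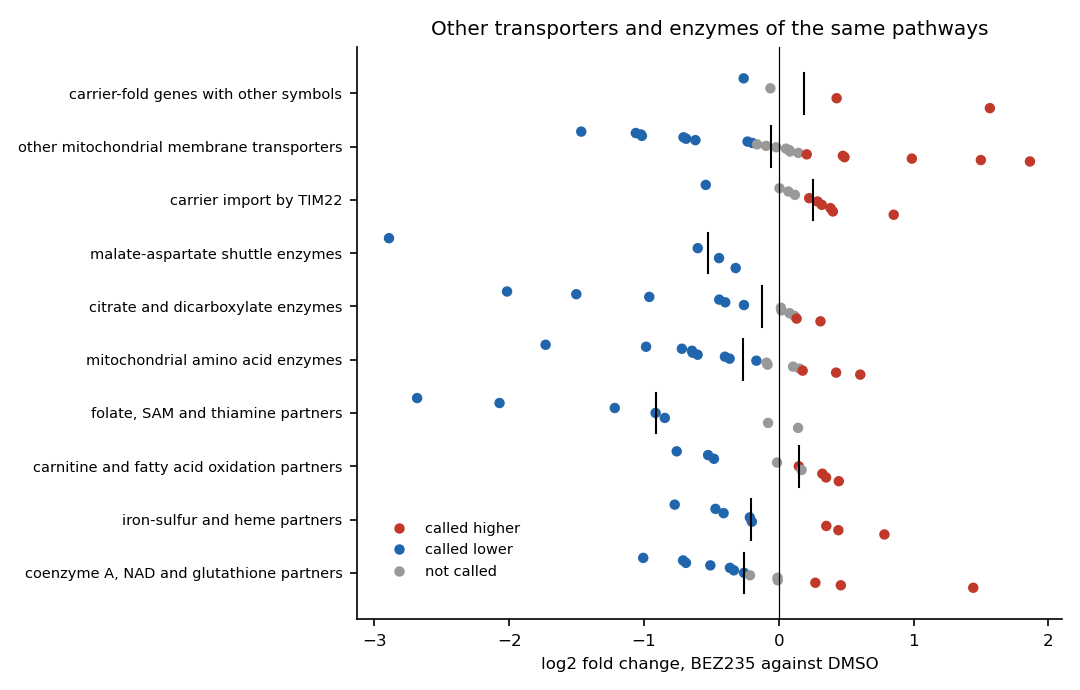
Log2 fold change of each tested gene in 10 lists of other transporters and of enzymes that use the carried metabolites, BEZ235 against DMSO; black ticks mark the list medians. All 4 malate-aspartate shuttle enzymes lie below 0, while the TIM22 list has 6 of 10 genes called higher.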

How the data were processed

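Per the file headers, the deposited table gives normalized counts per gene for each library (a signal, at least 0) on hg38 with rows of the FASTDB annotation. The submitters' processing notes name FastQC, Picard, SAMtools, STAR 2.4.0, DESeq and hg38 without their roles, with strand and counting rule not given in the sources used here. Control columns were matched to the DMSO samples by number. Values were whole multiples of 1 step per library (0.835 to 1.16), giving whole reads for 100% of values within 0.01 normalized counts; a count of 0 allows up to 3 reads, or 2.50 to 3.47 normalized counts, for counting error only. limma 3.58.1 (R 4.3.3, mean-variance trend) was fitted to log2(normalized count + 1) with Benjamini-Hochberg adjustment over 23923 genes. Fold changes are on that scale, which understates low genes. It called 15863 genes, against 15744 by edgeR 4.0.16 and 15706 by DESeq2 1.42.0 from recovered reads. The fit was also run on simulated counts with far fewer changed genes than were called here. That run does not give the error rate of the fit on these data. The family, the lists and the pairs of related carriers were chosen with earlier results of these data known. Within the family, members were taken by name alone, with no measured value used. Values in every library are given for members called at least 2-fold and for 8 members chosen by role; of each list of partners, up to 3 genes with the smallest adjusted p, 1 in the other direction, and UCP2, MTCH2, MPC1, MPC2, VDAC1 and MCU are named. Genes named beyond that rule, such as overlapping genes, MTCH1, MTHFD2L and MAT2A, were chosen after their values were seen. Of the genes counted, 1 member and 1 other transporter are counted in the totals but not reported here by name.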

Additional observations from a re-analysis of the deposited data

How the results depend on the processing

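The 17 alternatives covered scaling, pseudocount, filter, variance model, test, pairing and each left-out library. Members called higher ran from 15 to 19 and lower from 18 to 20, and genes called from 14285 to 16102; of the 35 called members, 33 were called under every alternative, the exceptions being SLC25A18 and SLC25A36. The median of the members, -0.02, was -0.12 with total-count scaling, 0.019 with quantile normalization, 0.050 with no filter and -0.073 to 0.049 when single libraries were left out, so its sign is not settled. Among genes not called, the sign of SLC25A22 changed to -0.0088 with total-count scaling and that of VDAC1 to -0.019. SLC25A41 was at -0.082 with total-count scaling and, when a library was left out, from -0.12 to 0.18, with -0.091, -0.045 and -0.12 without DMSO replicate 1, DMSO replicate 2 and BEZ235 replicate 1. The ratio of SLC25A28 to SLC25A37 changed by 1.02 times, or by 0.976 to 1.06 times when single libraries were left out, the lowest without DMSO replicate 1; leaving out libraries for the ratios was added after seeing the data. The cause of these changes was not tested. Replicate numbers were shared by the groups, but same-numbered libraries did not deviate together (r = -0.04, 0.02 and 0.04 across genes); the replicate block gave 15917 genes, and 17 members higher and 18 lower. Not every library correlated best with its own number. Depth limits SLC25A2, SLC25A31, SLC25A47 and SLC25A48, with at most 23 reads per group; with no filter SLC25A31 was called and the others were not (limma adjusted p = 0.121, 0.0944 and 0.414 for SLC25A2, SLC25A48 and SLC25A47).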
